A study of Mus musculus with 12 samples.

Results

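Collagens are the main structural proteins of connective tissue and of basement membranes, and 34 mouse genes that encode collagen chains were followed in embryonic kidneys that lack the bradykinin B2 receptor. The genes were chosen by name, and probes were assigned to them by accession. They fall into 9 fibrillar genes, 5 genes of the type IV collagens of basement membranes and 20 others, of 17305 genes with a matched probe or more on the array. Kidneys of *Bdkrb2* null embryos and of wild-type (WT) embryos were compared at embryonic day 14.5. *Bdkrb2* encodes the B2 receptor for bradykinin, a kinin peptide that acts on vessels and on salt handling. Both groups were on a C57BL/6 background, both came from matings of heterozygous mice, and both had mothers fed food with 5% sodium. No group on ordinary food enters the comparison, so it concerns genotype under salt loading alone. The labels do not say which tissue the allele is lost from beyond calling the embryos null, or whether a sample held 1 embryo or several.

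On each of 12 two-colour arrays, total RNA of null kidneys was hybridised together with that of WT kidneys. In 3 replicates the null RNA carried Cy5 (null/WT), and in the other 3 the WT RNA carried Cy5 (WT/null). Each replicate was hybridised to 2 arrays, which were averaged, so every value below rests on 6 replicates. Each of the 3 slides held both orientations of 1 replicate number, and a slide value is the mean of the 2. All ratios are log2 of null over WT, so a value of 0.30 is a fold of 1.23 (*Col1a1* by its brightest probe).

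A collagen chain folds with others of its type into a long helix. Before it does so, enzymes hydroxylate and glycosylate it in the endoplasmic reticulum. Fibrillar collagens are secreted with end pieces that proteases remove, after which the molecules assemble into fibrils and lysyl oxidases crosslink them. Type IV collagens instead form the sheet-like network of basement membranes, which in the kidney underlies the ureteric epithelium, the tubules and the glomerular capillaries. The other collagens coat fibrils, form beaded filaments or hexagonal nets, or span the cell membrane. In the developing kidney, interstitial stromal cells and vessel walls are known sources of fibrillar chains.

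*Col3a1* and *Col1a2* encode chains of common fibrillar types of soft tissue, types III and I, and their probes are among the brightest of the family. The 250 bases before their transcription starts are shown for these bright members of the fibrillar class. Capitals mark matches, on either strand, to 3 motifs, and no matches overlap. The TATA box was searched as TATAAA. The CCAAT box was searched under the letters of its name, and the GC box as GGGCGG. Sequences are those of RefSeq on GRCm38.p6, where 29 of the 34 members have an entry.
*Col3a1*, chr1:45311288-45311537, plus strand: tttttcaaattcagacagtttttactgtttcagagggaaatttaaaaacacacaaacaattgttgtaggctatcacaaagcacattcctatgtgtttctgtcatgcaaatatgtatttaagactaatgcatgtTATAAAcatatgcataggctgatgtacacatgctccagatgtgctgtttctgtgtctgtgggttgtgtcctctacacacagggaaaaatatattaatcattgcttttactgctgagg
*Col1a2*, chr6:4505368-4505617, plus strand: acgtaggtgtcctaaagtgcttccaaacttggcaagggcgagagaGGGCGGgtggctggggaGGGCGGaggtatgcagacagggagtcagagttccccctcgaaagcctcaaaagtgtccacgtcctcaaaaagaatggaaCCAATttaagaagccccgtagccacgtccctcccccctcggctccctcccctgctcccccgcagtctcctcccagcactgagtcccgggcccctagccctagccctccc

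The *Col3a1* window holds 1 TATA box, which begins 117 bases before the start, and no match to the other two. The *Col1a2* window holds 1 CCAAT box, which begins 109 bases before the start, and 2 GC boxes, the nearer at 188 bases, but no TATA box. Over 32851 mouse promoter windows of the same length, 12.4% held the TATA box, 33.8% the CCAAT box and 32.7% the GC box. The matches describe the letters only.

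A few properties of the arrays bear on these genes. The share of spots well above background was 41.2% to 59.0% for Cy3 and 51.1% to 60.0% for Cy5, and the duplicate arrays correlated at 0.711 in WT/null replicate 3 and at 0.824 to 0.923 elsewhere. The single *Bdkrb2* probe did not check the labels, since its signal stood clear of background in 0 of the null channels and 1 of the 12 WT channels. By the same measure *Xist* was detected in all 12 null channels and in 4 WT channels. The Y-linked genes *Eif2s3y*, *Kdm5d* and *Ddx3y* were detected in 0 null channels and in 8 WT channels. Those 8 channels were on slides 2 and 3, where sex and genotype cannot be told apart. Of the kidney markers *Six2*, *Cited1*, *Pax2*, *Wnt11*, *Nphs1*, *Lhx1* and *Ret*, 6 were tested and *Ret* was not.

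Of the 34 collagen genes, 32 had a matched probe, with none matched to *Col6a3* or *Col12a1*. The 32 genes had 56 probes, and 44 probes of 29 genes were tested, which took a signal well above background in either genotype's channel on 6 arrays or more. *Col4a5*, a basement membrane chain on the X chromosome, *Col10a1*, the collagen of hypertrophic cartilage, and *Col19a1* had no tested probe. Their probes reached that signal in at most 1 null channel and in 0 WT channels. All 9 fibrillar genes were tested (16 of 17 probes), as were 4 of 5 type IV genes (7 of 9 probes) and 16 of 20 others (21 of 30 probes). A probe that passed this filter did so on brightness in either genotype, so genes quiet in both are not represented. No collagen probe was saturated.

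Null kidneys had collagen values slightly above WT for most of the family, and 0 of the 44 probes passed the test. The threshold was a limma adjusted p under 0.05 over all 22979 tested probes, which 0.0392% of them passed. The smallest adjusted p was 0.257, for *Col14a1* (limma). With same-numbered replicates averaged in pairs before the fit, the smallest was 0.904 (limma). At an unadjusted p under 0.05, 15 of 44 collagen probes (34.1%) were above 0 and 0 were below, whereas over all tested probes 4.41% were above and 2.59% below. By sign alone, 30 of the 44 probes were above 0 and 14 below, beside 44.1% above over all tested probes. Probes of one gene share its transcript, so these counts are not of independent features. Taking the brightest tested probe of each gene, 23 of 29 genes were above 0, and 15 were above 0 on all 3 slides. In bulk tissue, a change in the number of collagen-making cells and a change in RNA per cell cannot be told apart.

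The 3 class medians lay above that of all probes. Over all slides the median of null over WT was 0.18 for fibrillar, 0.08 for type IV and 0.12 for other collagens, against -0.01 over all tested probes. On slides 1, 2 and 3 the fibrillar median was 0.09, 0.14 and 0.13, and the type IV median was 0.05, 0.19 and 0.10. The other collagens had medians of 0.12, 0.07 and 0.19. All 9 of these values lay above the all-probe medians of 0.01, -0.01 and -0.03, and the classes changed rank from slide to slide. The number of genes above 0 was 23, 22 and 19 of 29 on slides 1, 2 and 3. By class, 7 of 9 fibrillar, 4 of 4 type IV and 12 of 16 other genes were above 0 over all slides. Leaving out slides 1, 2 and 3 in turn gave medians of 0.16, 0.18 and 0.09 for the fibrillar class, 0.08, 0.07 and 0.13 for type IV, and 0.10, 0.14 and 0.12 for the others. No difference between classes was tested.

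**Figure D1:**
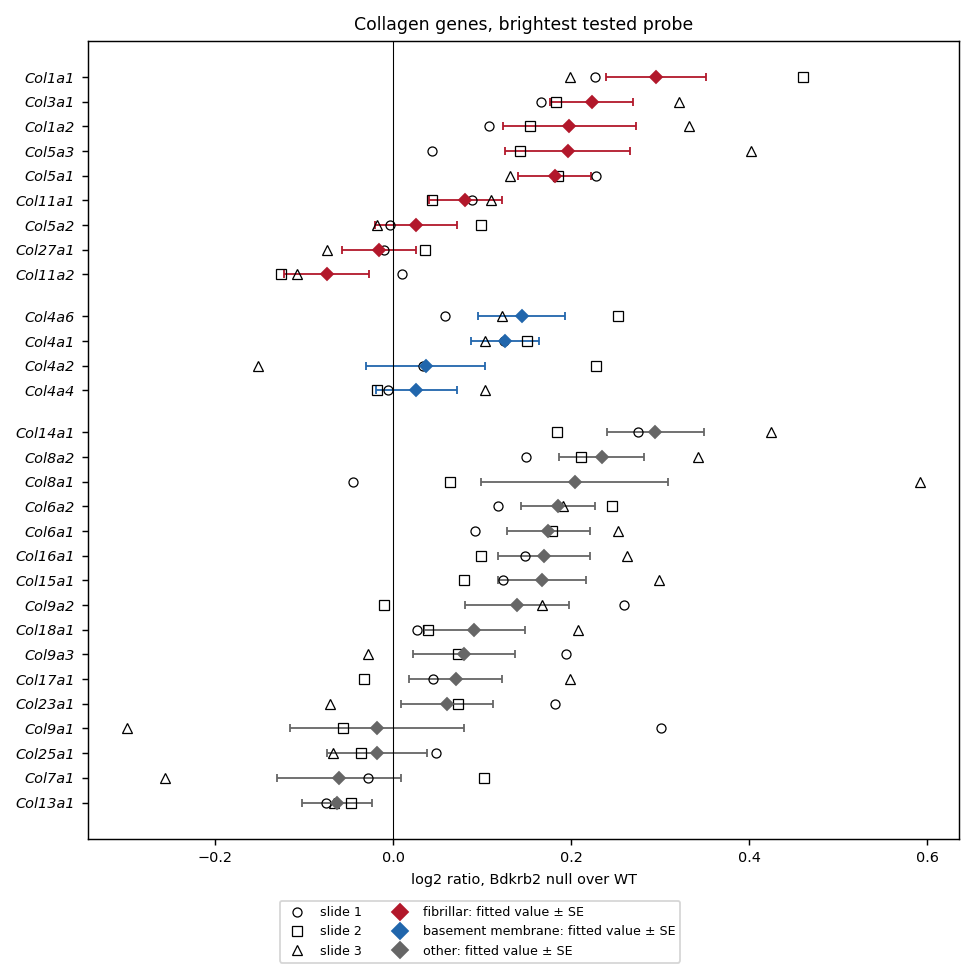
Log2 ratio of *Bdkrb2* null over WT for the brightest tested probe of 29 collagen genes, grouped by class (vertical axis) against the ratio (horizontal axis). Open symbols are slide values, each the mean of 2 dye orientations, and diamonds are fitted values ± SE over 6 replicates. Fitted values run between -0.07 (*Col11a2*) and 0.30 (*Col1a1*), and 23 of 29 lie above 0.

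Signal differed widely between members. Mean log2 brightness over both channels of the brightest probe ran from 7.98 to 15.8 with a median of 11.2 in the fibrillar class, from 7.59 to 12.6 with a median of 10.7 in the type IV class, and from 6.53 to 15.3 with a median of 9.24 in the others. Brightness depends on the probe as well as on the transcript, so these figures describe signal, not abundance. It sets how many channels could be read: 11 of 17 fibrillar, 6 of 9 type IV and 17 of 30 other probes were well above background in all 12 channels of both genotypes.

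Type I collagen, the chief fibril of most connective tissue, is built from the products of *Col1a1* and *Col1a2*. The log2 signal of *Col1a1* was 14.20 at the lowest, 14.76 at the median and 15.11 at the highest in null samples, against 14.08, 14.43 and 14.73 in WT samples. The ranges overlap. In null/WT replicates 1, 2 and 3 the ratio was 0.00, 0.16 and 0.00, and in WT/null replicates it was 0.46, 0.76 and 0.40. Every WT/null value was thus above every null/WT value, and the fitted value was 0.30 ± 0.06 (SE, n = 6; limma adjusted p = 0.269). The other 2 probes of *Col1a1* gave 0.18 ± 0.08 and 0.08 ± 0.04. *Col1a2* had log2 signals of 15.44, 15.91 and 16.17 in null and 15.31, 15.63 and 16.14 in WT samples. Its ratio was 0.20 ± 0.07, with 0.11, 0.15 and 0.33 on slides 1, 2 and 3, and 5 of 6 replicates were above 0.

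Type III collagen, found with type I in vessel walls and loose stroma, is made from *Col3a1* alone. Its log2 signal was 14.42, 14.82 and 15.21 in null samples and 14.17, 14.58 and 15.01 in WT samples, again with overlap. The ratio was 0.20, 0.11 and 0.34 in null/WT replicates 1, 2 and 3 and 0.13, 0.26 and 0.30 in WT/null replicates. All 6 were above 0 and neither orientation stood apart. The fitted value was 0.22 ± 0.05, a fold of 1.17 (limma adjusted p = 0.344). A dimmer *Col3a1* probe gave 0.08 ± 0.04.

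The type V and type XI chains are minor components that regulate the diameter of fibrils, type V with type I and type XI mainly in cartilage. *Col5a1* had null/WT values of 0.03, -0.05 and 0.00 and WT/null values of 0.43, 0.42 and 0.26. Its fitted value was 0.18 ± 0.04 (limma adjusted p = 0.409), while a dimmer probe stood at -0.02 ± 0.06. *Col5a3* was uneven over slides, with 0.00, -0.01 and 0.45 in null/WT replicates 1, 2 and 3 and 0.09, 0.30 and 0.36 in WT/null replicates. Both orientations were highest on slide 3, and its fitted value of 0.20 ± 0.07 (limma adjusted p = 0.668) was 0.09 without that slide. *Col5a2* stood at 0.03 ± 0.05. *Col11a1* had null/WT values of 0.25, 0.19 and 0.37 and WT/null values of -0.07, -0.10 and -0.15, the opposite order to *Col5a1*. It was fitted at 0.08 ± 0.04 by that probe and at -0.03 ± 0.06 by another. *Col11a2* and *Col27a1*, both known from cartilage, had the only fibrillar values below 0 by the brightest probe, at -0.07 ± 0.05 and -0.02 ± 0.04.

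The type IV network is built from several chains, of which those of *Col4a1* and *Col4a2* occur in basement membranes throughout the body. These 2 genes lie head to head on chromosome 8. *Col4a1* had log2 signals of 12.36, 12.72 and 12.94 in null and 12.20, 12.58 and 12.82 in WT samples. Its ratio was 0.40, 0.38 and 0.29 in null/WT replicates 1, 2 and 3 and -0.15, -0.08 and -0.08 in WT/null replicates. By this probe the sign thus followed the dye, while the slide values of 0.12, 0.15 and 0.10 were close together. The fitted value was 0.13 ± 0.04 (limma adjusted p = 0.606). Another bright *Col4a1* probe stood at 0.05 ± 0.05, with 0.04, 0.16 and -0.03 on slides 1, 2 and 3. It did not pass the dye term (limma adjusted p = 0.331). *Col4a2* varied by slide instead, with -0.12, 0.15 and -0.22 in null/WT and 0.19, 0.30 and -0.08 in WT/null replicates. Its slide values were 0.03, 0.23 and -0.15, and its fitted value was 0.04 ± 0.07. Its second probe gave 0.03, 0.32 and -0.40 on the same slides and a fitted value of -0.02 ± 0.11.

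*Col4a4* encodes a chain of the mature glomerular basement membrane and *Col4a6*, on the X chromosome, a chain of other epithelial basement membranes. *Col4a4* was dim, with log2 signals of 7.44, 7.57 and 7.77 in null and 7.45, 7.56 and 7.78 in WT samples. Its ratio was 0.05, 0.11 and 0.31 in null/WT replicates 1, 2 and 3, -0.06, -0.15 and -0.10 in WT/null replicates, and 0.03 ± 0.05 over all. The sign again followed the dye. *Col4a6* stood at 0.25, 0.32 and 0.28 in null/WT and -0.13, 0.18 and -0.03 in WT/null replicates, at 0.06, 0.25 and 0.12 on slides 1, 2 and 3, and at 0.14 ± 0.05 over all (limma adjusted p = 0.647). Its second tested probe stood at -0.04 ± 0.05. The genotypes differed in *Xist* on slides 2 and 3 and not on slide 1 (log2 0.20, 2.42 and 1.89), and the part of this in the X-linked *Col4a6* was not tested.

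The other collagens include several that associate with fibrils. *Col14a1*, which codes for a collagen on the surface of type I fibrils, had log2 signals of 8.28, 9.15 and 9.79 in null samples and 8.18, 8.73 and 9.64 in WT samples. The ratio was 0.11, -0.10 and 0.28 in null/WT replicates 1, 2 and 3 and 0.45, 0.47 and 0.56 in WT/null replicates. With 5 of 6 replicates above 0 it was fitted at 0.29 ± 0.05, a fold of 1.23 (limma adjusted p = 0.257). *Col16a1* gave 0.17 ± 0.05 by its bright probe and 0.01 ± 0.04 by a dimmer one. The 3 chains of type IX collagen, a cartilage collagen also made by some embryonic epithelia, did not share an order over slides. *Col9a1* had 0.35, -0.12 and -0.17 in null/WT replicates 1, 2 and 3 and 0.25, 0.01 and -0.42 in WT/null replicates. By slide it stood at 0.30, -0.06 and -0.30, *Col9a2* at 0.26, -0.01 and 0.17, and *Col9a3* at 0.19, 0.07 and -0.03. Their fitted values were -0.02 ± 0.10, 0.14 ± 0.06 and 0.08 ± 0.06.

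Type VI collagen forms beaded filaments around cells, and both of its probed chains had values above 0. *Col6a1* stood at -0.04, 0.16 and 0.23 in null/WT replicates 1, 2 and 3 and at 0.22, 0.20 and 0.27 in WT/null replicates, with a fitted value of 0.17 ± 0.05 (limma adjusted p = 0.538). *Col6a2*, its neighbour on chromosome 10, stood at 0.32, 0.46 and 0.45 in null/WT and -0.08, 0.03 and -0.07 in WT/null replicates. Its fitted value was 0.19 ± 0.04 (limma adjusted p = 0.388). The pair had close means, yet only *Col6a2* had orientations that did not overlap.

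Type VIII collagen forms nets under endothelium and around vessels. *Col8a2* had log2 signals of 9.44, 9.64 and 9.83 in null samples and 9.24, 9.43 and 9.57 in WT samples. Its ratio was -0.02, 0.00 and 0.22 in null/WT replicates 1, 2 and 3 and 0.31, 0.43 and 0.47 in WT/null replicates, which do not overlap. The slide values were 0.15, 0.21 and 0.34, with 0.23 ± 0.05 over all (limma adjusted p = 0.316). *Col8a1* had -0.05, 0.05 and 0.50 in null/WT and -0.04, 0.08 and 0.68 in WT/null replicates. It stood at -0.04, 0.06 and 0.59 on the 3 slides, the widest slide range of the 29 genes (0.64). Its fitted value of 0.20 ± 0.10 was 0.01 without slide 3.

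*Col15a1* and *Col18a1* encode collagens of basement membrane zones that carry heparan or chondroitin sulfate chains, and the end of the *Col18a1* product is the fragment endostatin. *Col15a1* was above 0 in 6 of 6 replicates, with 0.12, 0.08 and 0.30 on slides 1, 2 and 3 and a fitted value of 0.17 ± 0.05 (limma adjusted p = 0.588). *Col18a1* was bright, with log2 signals of 15.28, 15.42 and 15.47 in null and 15.13, 15.32 and 15.51 in WT samples. Its ratio was -0.13, 0.12 and 0.14 in null/WT and 0.19, -0.04 and 0.27 in WT/null replicates. The fitted value was 0.09 ± 0.06 by that probe and -0.01 ± 0.05 by another bright one. *Col7a1*, the anchoring fibril gene of skin, stood at -0.06 ± 0.07. By their brightest probes the membrane-spanning collagens lay near 0, with *Col13a1* at -0.06 ± 0.04, *Col17a1* at 0.07 ± 0.05, *Col23a1* at 0.06 ± 0.05 and *Col25a1* at -0.02 ± 0.06. A dimmer *Col13a1* probe stood at -0.16 ± 0.10, with -0.02, 0.07 and -0.52 on slides 1, 2 and 3. None of the 7 probes of these 4 genes had an unadjusted p under 0.05.

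The dye term was uneven across the family. A term for dye orientation passed a limma adjusted p under 0.05 for 7 of 44 collagen probes (15.9%), beside 13.5% of all tested probes. The 7 were the probes of *Col1a1*, *Col5a1*, *Col11a1*, *Col4a1*, *Col14a1*, *Col16a1* and *Col6a2*, all bright ones of their gene. Null/WT lay below WT/null in *Col1a1*, *Col5a1*, *Col14a1* and *Col16a1*, and above it in *Col4a1*, *Col11a1* and *Col6a2*. Both orientations of *Col3a1* (means of 0.22 in null/WT and 0.23 in WT/null) and of *Col15a1* (0.19 and 0.14) were above 0. The same held for other genes, among them *Col1a2*, *Col5a3*, *Col6a1* and *Col8a1*. It also held for *Col1a1* and *Col14a1*, whereas each other gene that passed the dye term had a mean below 0.

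**Figure D2:**
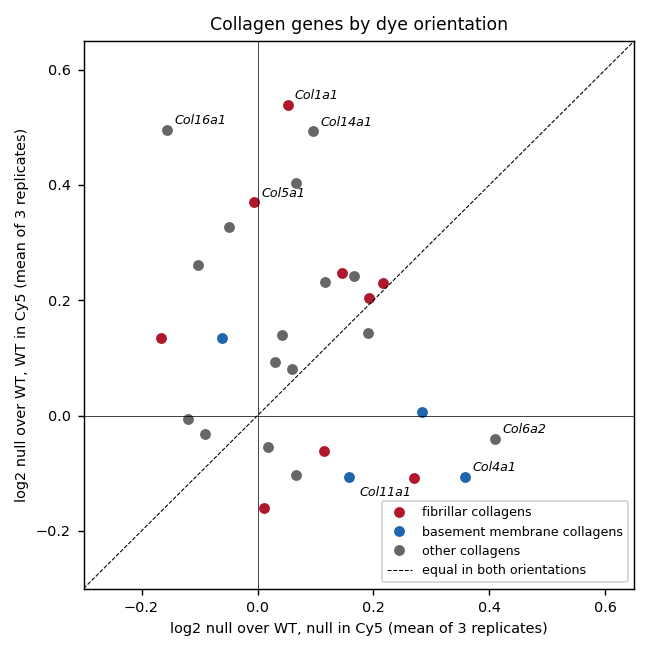
Mean log2 ratio of *Bdkrb2* null over WT over 3 replicates with null in Cy5 (horizontal axis) and over 3 replicates with WT in Cy5 (vertical axis), 1 point per collagen gene by its brightest tested probe. The dashed line marks equal values, and named points passed the dye term. *Col1a1* stands at 0.05 and 0.54, and *Col4a1* at 0.36 and -0.11.

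Values also depended on which probe of a gene was read. More than 1 probe was tested for 13 genes. The signs disagreed in 5 of them (*Col4a2*, *Col4a6*, *Col11a1*, *Col5a1* and *Col18a1*), and in 11 the brightest probe had the highest ratio. The probe below 0 was dim in *Col4a6*, *Col11a1* and *Col5a1* (mean log2 brightness of 7.09, 6.69 and 6.86). It was bright in *Col4a2* and *Col18a1* (10.6 and 13.0). A split at a mean log2 brightness of 8 was chosen after the values were seen. All 15 probes with an unadjusted p under 0.05 were among the 29 at or above it (51.7%), and 0 were among the 15 below. Over all tested probes the share with an unadjusted p under 0.05 and a value above 0 was 6.26% at or above 8 and 1.92% below. With the mean of a gene's probes in place of the brightest, the fibrillar median was 0.08.

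**Figure D3:**
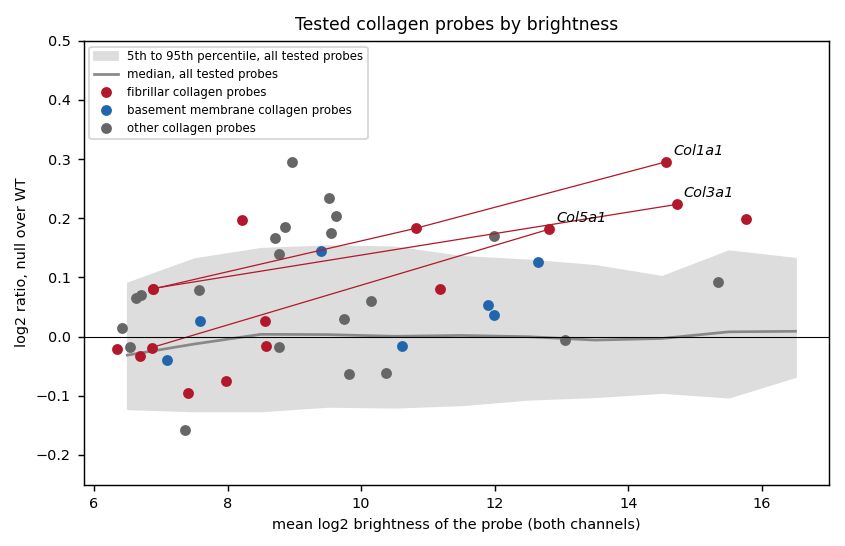
Log2 ratio of *Bdkrb2* null over WT (vertical axis) against mean log2 brightness over both channels (horizontal axis) for 44 tested collagen probes, with lines joining the probes of *Col1a1*, *Col3a1* and *Col5a1*. The grey line and band are the median and the 5th to 95th percentiles of all tested probes in steps of 1 log2 unit. No probe under 8 lies above the band, while the brightest probes of *Col1a1* (0.30), *Col3a1* (0.22) and *Col5a1* (0.18) do.

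Enzymes that prepare collagen chains had values on both sides of 0. Of 19 genes of modification and folding, 9 were above 0 and 10 below (median -0.01), in both directions among the 4 with the smallest p. *P4ha1* and *P4ha2*, of the proline hydroxylase, stood at 0.14 ± 0.07 and 0.08 ± 0.06, the lysine hydroxylase gene *Plod2* at 0.10 ± 0.05 and *P3h4* at -0.09 ± 0.05. Of 9 tested genes of end piece removal and crosslinking, 5 were above 0 (median 0.02). *Adamts2*, which removes the amino end pieces of fibrillar chains, stood at 0.12 ± 0.05 and *Pcolce*, an enhancer of removal at the other end, at 0.11 ± 0.05. *Adamts14*, a relative of *Adamts2*, and the lysyl oxidase relative *Loxl4* both stood at -0.11 (SE 0.08 and 0.09). Collagen receptors had 5 of 6 genes above 0 (median 0.12), with the integrin gene *Itga11* at 0.17 ± 0.06. *Ddr2*, a receptor kinase for fibrillar collagen, stood at 0.19 ± 0.04 by its brightest probe (limma adjusted p = 0.299). That probe passed the dye term (limma adjusted p = 0.043), and a dimmer *Ddr2* probe stood at 0.01 ± 0.06. Partners of type IV collagen in basement membranes had 8 of 9 above 0 (median 0.10). Their medians on slides 1, 2 and 3 were 0.16, 0.11 and -0.03, the last beside -0.03 over all tested probes. *Nid1*, which links laminin to type IV collagen, stood at 0.20 ± 0.04 with 6 of 6 replicates above 0 (limma adjusted p = 0.380), and *Nid2* at 0.11 ± 0.04. The heparan sulfate proteoglycan genes *Agrn* and *Hspg2* stood at 0.17 ± 0.04 and 0.18 ± 0.08. The *Agrn* probe passed the dye term (limma adjusted p = 0.0252), with means of 0.37 in null/WT and -0.02 in WT/null replicates. *Hspg2* had means of -0.12 and 0.48, and stood at -0.09 on slide 3. The dye term passed for 3 of 11 probes of this list (27.3%) and for 10 of 56 over all 4 lists (17.9%), beside 13.5% of all tested probes. Of the 56 probes of these lists 0 passed, beside 0.0392% of all tested probes. At an unadjusted p under 0.05, 7 (12.5%) were above 0 and 0 below, beside 4.41% and 2.59% of all tested probes.

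Markers of other cell types had values on both sides of 0, and the lists differed most on slide 3. Skeletal muscle genes had 7 of 7 tested members above 0 (8 listed, *Ckm* untested), with medians of 0.14, 0.41 and 2.16 on slides 1, 2 and 3. Their summed signal ran from 1124 to 4682 in null samples, against 1076 to 1307 in WT samples. Smooth muscle and pericyte markers had 5 of 5 above 0 (medians of 0.23, 0.14 and 0.53), and a summed signal of 18497 to 26273 in null against 16397 to 23666 in WT samples. Stromal and fibroblast markers had 5 of 6 above 0 (medians of 0.17, 0.04 and 0.26), with *Dcn* and *Lum*, proteoglycans that bind collagen fibrils, at 0.35 and 0.49 and the kidney stroma gene *Foxd1* at 0.02. Their summed signal was 23929 to 32196 in null and 19974 to 30092 in WT samples. Endothelial markers had 5 of 5 above 0 (median 0.14; summed signal 5718 to 8042 in null and 4995 to 6975 in WT samples).

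Cartilage markers had 3 of 5 tested members above 0 (8 listed, medians of 0.03, 0.02 and -0.04), and a summed signal of 840 to 964 in null and 818 to 920 in WT samples. The members were split on slide 3, with *Comp* at 0.32 and *Hapln1*, the brightest, at 0.28. *Acan*, *Cnmd* and *Matn4* stood at -0.04, -0.15 and -0.29 there. *Sox5* was well above background in no channel. Of 4 bone markers, *Ibsp*, *Alpl* and *Runx2* were well above background in no channel, while *Sp7* was so in 11 null and 12 WT channels and stood at -0.04 (-0.19 on slide 3). *Star*, the tested adrenal marker, stood at -0.05 (-0.14 on slide 3). The kidney markers had 2 of 6 above 0 (median -0.04, and -0.13 on slide 3; summed signal 18087 to 20504 in null and 18513 to 23251 in WT samples). The part of these tissues in the collagen values was not tested.

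**Figure D4:**
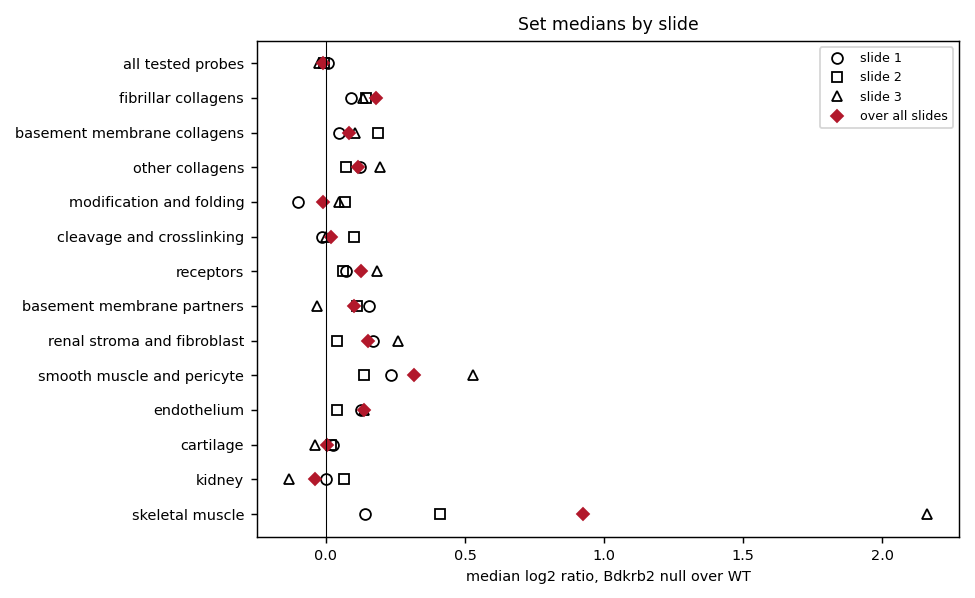
Median log2 ratio of *Bdkrb2* null over WT (horizontal axis) over the genes of each list (vertical axis), by slide (open symbols) and over all slides (diamonds). Skeletal muscle reaches 2.16 on slide 3, while the 3 collagen classes stay between 0.05 and 0.19 on every slide.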

How the data were processed

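Spot and local background signals were deposited as median intensity for each dye, with no further normalization, per the file headers. The files also hold deposited scanner-processed intensity values, for which the headers name Agilent Feature Extraction 10.5.1.1, while the submitters' processing notes name version 6.1. The authors' series table of deposited log10 ratios correlated at 0.998 to 0.999 with the scanner's ratios turned to null over WT, with slopes near 1.00, which settles its scale and direction (array column medians of 0.00645, 0.000114, 0.00146, -0.00174, -0.00315 and -0.00332 for null/WT and -0.000769, -0.000946, -0.00257, -0.00441, -0.0100 and -0.0218 for WT/null). How its blank entries were chosen is unknown. It served as an alternative only, and 0 columns were left aside.

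Background was corrected on the medians with normexp (offset 50), and loess was applied to the log2 ratios of each array, where control and outlier spots (101 to 262 per array) had weight 0. After removal of control spots, spots of a probe were averaged to 41174 probes, and the 2 arrays of a replicate were averaged. Channel signals were taken after loess and Aquantile normalization. Probes were named by unversioned accession through a RefSeq table of GRCm38.p6 (25097 probes, 17777 of those tested). The array's own build is mm9, so no probe position is given. limma 3.58.1 in R 4.3.3 fitted genotype and dye over 6 replicates, with Benjamini-Hochberg adjustment over 22979 probes. The fit was also run on simulated data, but these had 6 independent replicates, so that run does not bear on paired replicates. The number of arrays limits precision (median SE 0.0506). The brightest tested probe stands for a gene.

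Same-numbered replicates shared a slide and deviated together (r = 0.587, 0.517 and 0.413), so the numbers pair the samples. A fit to the 3 pair averages, without a dye term, and a fit with the slide as a random block were run too. Skeletal muscle medians were also alike within a number, at 0.16, 0.42 and 2.31 in null/WT replicates 1, 2 and 3 and 0.10, 0.43 and 1.98 in WT/null replicates. Because paired values deviated together, the SEs and p-values of the main fit, which ignores the pairs and which the Results print, are likely too small. If the 2 orientations shared RNA extracts, which the labels do not say, only 3 samples per genotype are independent. The Y-linked genes were detected in the WT samples of replicates 2 and 3 and not in those of replicate 1. Those of replicate 1 thus did not hold the same embryo or pool as the others. Beyond this and the labels' word, nothing says that the replicates came from separate embryos, so p-values may measure technical spread.

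The members and the lists of pathway genes and markers were chosen with earlier results of these data known, so lists are described and not tested. One marker list is not reported here. Replicate values are given for the 4 genes per class with the smallest p, the 2 per class with the widest slide range and genes whose probes disagree in sign (16 genes). Others are described by slide or fitted value, and up to 4 genes of each pathway list are named. Alternatives covered background correction, normalization, filters, the dye term, blocks, single replicates, slides and arrays, the choice of probe and the authors' values.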

Additional observations from a re-analysis of the deposited data

Results flagged for a closer look

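In 6 of the 16 collagen genes given by replicate, the null over WT ratio differed between the dye orientations past a limma adjusted p under 0.05 for the dye term. The difference, null/WT mean minus WT/null mean on the log2 scale, was 0.46 for *Col4a1*, 0.45 for *Col6a2*, 0.38 for *Col11a1*, -0.38 for *Col5a1*, -0.40 for *Col14a1* and -0.49 for *Col1a1*. The adjusted p of the dye term was 0.00983, 0.0136, 0.023, 0.0241, 0.0491 and 0.028 in that order (limma). Over the whole family 7 of 44 probes (15.9%) passed the dye term, beside 13.5% of all tested probes. The 16 genes were picked in part by small p for genotype and read by their brightest probe, so their share is not set against that of all probes. *Col6a1* had 1 replicate far from the other 5: null/WT replicate 1 stood at -0.038, and its gap to the nearest value was 0.628 of the whole range. Chance sets a value this far apart in about 1 in 20 groups of independent values, which paired replicates are not. All 16 genes were screened in this way and *Col6a1* alone was flagged, which is near that rate.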

How the results depend on the processing

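No collagen or pathway probe passed under any of the alternatives run, and the count of collagen probes with an unadjusted p under 0.05 above 0, a count added after the data were seen, was 10 (without slide 1, and without the dye term) to 17, with 0 below. With each replicate pair averaged to 1 value, 13 probes did so beside 2.3% of all tested probes. There 0 collagen probes passed, and the smallest adjusted p was 0.904 (limma). With the slide as a random block the count was also 13, beside 2.96%, and the smallest collagen adjusted p was 0.563 (limma). Over all probes 9 passed in the main fit and 9 with the slide as a random block. Averaged pairs gave 4, the fit without slide 2 gave 3 and that without slide 3 gave 62. Leaving out 1 array of WT/null replicate 3 (its first) gave 15. The smallest collagen adjusted p under any alternative was 0.155, for *Col1a1* without slide 3 (limma).

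When arrays were centred on their medians and loess was left out, all tested probes had a median of 0.138. Relative to 0 the class medians were then 0.296 for fibrillar, 0.275 for type IV and 0.305 for other collagens. The mean of a gene's probes gave a fibrillar median of 0.0815. *Col9a1* turned above 0 with median centring (0.142), the scanner's processed signals (0.0109), the authors' table (0.0108), without slide 2 (0.00142) and without slide 3 (0.122), and ran from -0.102 to 0.0741 with single replicates left out. *Col4a2* stood at -0.0589 without slide 2 and ran from -0.0173 to 0.0916 with single replicates left out. *Col4a4* stood at -0.0122 without slide 3 and ran from -0.0114 to 0.0529 likewise. The cause was not tested. The other 291 values of named genes and 113 of the counts and class medians kept their direction and their side of the threshold, or lay within 1 SD or 1.5 times.

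Only 6 replicates in 3 pairs stand behind each value, and the 12 untested collagen probes are limited by signal over background.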
